A study of Mus musculus with 8 samples.

Results

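Basement membranes are thin sheets of matrix that lie under epithelia such as the bile duct lining and around blood vessels. Their framework is built from laminins, which are trimers of an alpha, a beta and a gamma chain, and from collagen IV, whose alpha chains join as trimers. Perlecan, a large heparan sulfate proteoglycan, and the nidogens link these networks. In most tissues the common collagen IV trimer holds the alpha 1 and alpha 2 chains, while the alpha 3, alpha 4 and alpha 5 chains form a separate trimer found in a few membranes. The genes Col4a1 and Col4a2 (collagen IV alpha 1 and alpha 2), Lama3 and Lama5 (laminin alpha chains), Lamb1, Lamb2 and Lamb3 (beta chains), Lamc1 (a gamma chain) and Hspg2 (perlecan) were taken by name. They are 9 of the 46603 genes counted, and 8 of them were among the 13605 genes with enough counts to be tested.

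The RNA came from mouse liver cells. The mice carried an H2B-EGFP fusion and R26rtTA, the doxycycline-dependent activator in the ubiquitously active Rosa26 locus, both heterozygous, on a mixed C57BL/6 and CBA background. Doxycycline was given from birth to postnatal day 5, and the cells were sorted at 8 weeks of age. Cells that had kept the nuclear label and were positive for EpCAM and negative for CD45 are called liver label-retaining cells (LLRCs), and cells of the same gate without EGFP are called non-LRC cells. All groups thus shared the transgenes, the doxycycline and the sort, and differed in the label. The fusion is also expressed without doxycycline in hematopoietic cells of these mice, which the CD45 gate was meant to remove. Each of the 4 mice, JV602, JV621, JV624 and JV6314, gave 1 LLRC library and 1 non-LRC library, so there were 4 libraries per group and 8 in all. Series of 4 values are given throughout in that order of the mice.

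Total counts were 7860021 to 9851819 in LLRCs and 4670132 to 8056103 in non-LRC cells. The non-LRC library of JV621 stood furthest apart, followed by that of JV6314. In JV621, 15.6% of the tested genes had a count of 0 in the non-LRC library. That share was 7.75% in the non-LRC library of JV6314 and between 0.345% and 1.57% in the other libraries. A count of 3, used here as the floor, corresponds to between 0.291 and 0.626 CPM (reads of a gene scaled to library size, with TMM factors), and it covers counting error only. All 20 genes of a cholangiocyte marker list were tested and none of them was at 0 throughout a group. Of these 15 had a log2 fold change above 0 and 5 below, with a median of 0.17, and Aqp1, a water channel gene also known from endothelial cells, was lowest at -4.07 (adjusted p = 0.0809 from edgeR). The summed level of the 20 genes was between 116783 and 223165 CPM in LLRCs, against 67924 to 164337 CPM in non-LRC cells, most of it Spp1.

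The members were compared between LLRCs and non-LRC cells, the contrast the study was built for. In the quasi-likelihood fit with edgeR over all genes, 0 genes (0%) reached the threshold of 0.05 after adjustment, 702 were below 0.05 without it, and the lowest adjusted p was 0.0809. Other tests called between 0 genes (limma voom) and 312 (DESeq2 with the mouse as a block). Of the 8 members tested, 0 passed the adjusted threshold and 3, Col4a1, Col4a2 and Hspg2, were below 0.05 before adjustment. The fitted log2 fold change, LLRC over non-LRC, was below 0 for 6 members and above 0 for 2, with a median of -0.71, beside a median of -0.01 over all genes tested, of which 51.1% were below 0. Without the non-LRC library of JV621 the median of the same 8 members was -0.64, and with the mouse as a block in edgeR it was -0.29. Lama5, 1 of the 2 above 0, had the opposite sign when only library size was used for scaling. The highest LLRC value was below the lowest non-LRC value for 2 members, Col4a1 and Col4a2, as it was for 1.91% of all genes tested. The reverse, with all LLRC values on top, was seen for 0 members and for 2.15% of all genes. The same 2 members were lower in the LLRC library of all 4 mice (5.53% of all genes), and none was higher in all 4 mice (7.74% of all genes). With the non-LRC libraries of JV621 and JV6314 left out, a choice made after seeing the data, 3 members, Lamb1 among them, had every LLRC library below both remaining non-LRC libraries, as did 8.12% of the 15143 genes then tested, and the log2 fold changes of Col4a1 and Col4a2 were -0.90 and -1.68.

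**Figure D1:**
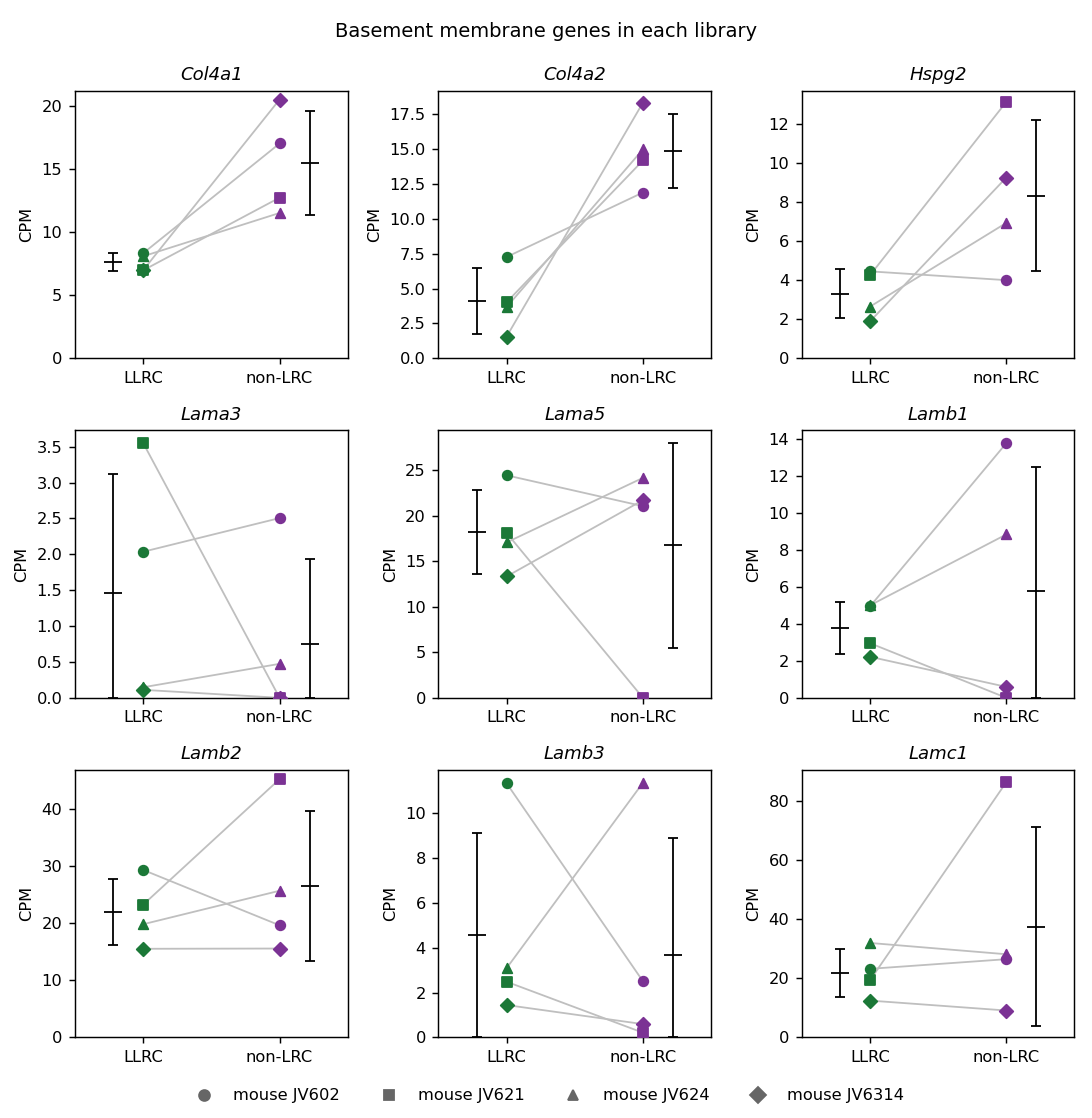
Normalised level (CPM, linear axis from 0) of the 9 members in each library. Points are libraries, grey lines join the LLRC and non-LRC libraries of a mouse, and black bars give the mean and SD over 4 libraries, with the lower end stopped at 0. For Col4a1 and Col4a2 the LLRC points all lie under the non-LRC points, while for the laminin genes the groups overlap.

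Collagen IV alpha 1 and alpha 2 stood lower in each LLRC library than in any non-LRC library, although neither passed the adjusted threshold. The genes lie head to head on chromosome 8 of GRCm38. Col4a1 (ENSMUSG00000031502) runs from 11312826 down to 11198423 on the minus strand with 54 merged exons, and Col4a2 (ENSMUSG00000031503) runs from 11312805 up to 11449287 on the plus strand with 48. The annotated 5′ ends of the first exons of both genes overlap by 22 bases. This stretch, chr8:11312805-11312826, is shown because reads on it cannot be assigned to a gene in unstranded counts, and because it is the shared start of both members whose groups did not overlap. It is written 5′ to 3′ on the plus strand, from RefSeq (GRCm38.p6), with a GC box (GGGCGG) in capitals.
Col4a1 and Col4a2, shared 5′ end: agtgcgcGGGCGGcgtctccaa
Antisense overlap covered 0.295% of the exon bases of Col4a1, with Col4a2 alone, and 0.982% of those of Col4a2, with Col4a1 and the gene Gm15419. Among other laminin and collagen IV chains this share was highest for Lamc3, at 6.27%, and Col4a3, at 5.65%.

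Col4a1 had 8.34, 6.98, 8.09 and 6.99 CPM in LLRCs of JV602, JV621, JV624 and JV6314. Its non-LRC values were 17, 12.7, 11.5 and 20.5 CPM. The groups did not overlap, and the LLRC libraries lay close together. Mean levels were 7.60 ± 0.715 CPM (SD, n = 4) for LLRCs and 15.5 ± 4.12 CPM (SD, n = 4) for non-LRC cells, 2.03 times as high. The fitted log2 fold change was -1.02 (SE 0.38, 95% interval -1.87 to -0.17), with an unadjusted p of 0.0236 and an adjusted p of 0.809 from edgeR. The exact two-sided permutation test over the 8 libraries gave p = 0.029, the smallest that 4 against 4 allows. These values rest on 55 to 136 counts per library.

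Col4a2 had 7.27, 4.02, 3.68 and 1.55 CPM in LLRCs and 11.9, 14.2, 15.0 and 18.4 CPM in non-LRC cells. All LLRC values again lay under all non-LRC values, and JV602 was the mouse with the smallest gap. Mean levels were 4.13 ± 2.36 CPM (SD, n = 4) for LLRCs and 14.9 ± 2.67 CPM (SD, n = 4) for non-LRC cells, 3.60 times as high. The fitted log2 fold change was -1.84 (SE 0.53, 95% interval -3.03 to -0.65), with an unadjusted p of 0.00652 and an adjusted p of 0.495 from edgeR, and the exact permutation test gave p = 0.029. DESeq2's Wald test, an alternative, gave Col4a2 a log2 fold change of -1.88 with an adjusted p of 0.0178, and Col4a1 one of -1.06 with an adjusted p of 0.0551. With the mouse as a block in DESeq2, neither was called, at an adjusted p of 0.0781 for Col4a2 and 0.437 for Col4a1. Over the 26 alternatives the adjusted p ran from 0.0178 to 0.99996 for Col4a2 and from 0.0551 to 1 for Col4a1. Within mice, Col4a2 differed by -0.64, -1.6, -1.77 and -2.92 on the log2(CPM + 1) scale and Col4a1 by -0.95, -0.78, -0.46 and -1.43. Sign flips over 4 pairs cannot give an exact p below 0.125, the value for both genes.

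The proportion of the partner transcripts also varied. Per length, the ratio of Col4a1 to Col4a2 was 1.02, 1.54, 1.95 and 3.99 in LLRCs, by mouse. It was 1.27, 0.796, 0.681 and 0.992 in non-LRC cells. The ranges overlap through JV602 alone, the mouse in which the ratio was lower in the LLRC library. The mean log2 ratio was higher in LLRCs by 1.04, and the exact two-sided permutation test gave p = 0.0571, unadjusted. The ratio was chosen after the values had been seen, so this p is not independent evidence.

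Hspg2 (ENSMUSG00000028763) encodes perlecan and lies on the plus strand of chromosome 4, at 137468769 to 137570630, with 97 merged exons. It had 4.46, 4.26, 2.65 and 1.89 CPM in LLRCs, by mouse, and 4.01, 13.2, 6.95 and 9.27 CPM in non-LRC cells. The non-LRC value was the higher of the pair in 3 mice, and the groups overlap through the non-LRC library of JV602 only. Mean levels were 3.31 ± 1.25 CPM (SD, n = 4) and 8.35 ± 3.86 CPM (SD, n = 4). Its fitted log2 fold change was -1.32 (SE 0.55, 95% interval -2.57 to -0.08), with an unadjusted p of 0.0398 and an adjusted p of 0.924 from edgeR, and the exact permutation test gave p = 0.0857. Counts were low, between 17 and 63 per library.

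In bulk samples, fewer cells of a type and less RNA per cell cannot be told apart. Collagen IV, perlecan and laminins are also made by endothelial and mesenchymal cells, so the marker lists of those cells are given beside the members. Of 20 endothelial markers, 17 were tested, all 17 had a log2 fold change below 0, and 0 passed the adjusted threshold. None of the 20 was at 0 throughout a group. The median of the 17 was -3.56, and for 15 of them the highest LLRC value was below the lowest non-LRC value. The summed endothelial level was 47.5, 102.8, 97.4 and 67.9 CPM in LLRCs, by mouse, and 333.1, 1756, 752.9 and 1034 CPM in non-LRC cells. JV602 had the lowest sum in both groups. The part of this difference in the levels of Col4a1, Col4a2 and Hspg2 was not tested.

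Of 20 stellate cell and fibroblast markers, 11 were tested, 9 with a log2 fold change below 0 and 2 above, with a median of -2.48, and 0 passed. For 2 of the 11 the highest LLRC value was below the lowest non-LRC value, beside 1.91% of all genes tested. LLRCs were lower in all 4 mice for 5 of the 11 and higher in all 4 for 0, beside 5.53% and 7.74% of all genes. Des, Hand2, Pdgfrb, Col1a1, Dpt, Acta2, Thy1, Lox and Cygb had too few counts to be tested, and Dpt was at 0 throughout the non-LRC group. The summed level was between 2489 and 9967 CPM in LLRCs, against 3582 to 9656 CPM in non-LRC cells. Rgs5 made up most of it except in the non-LRC library of JV624, where it had 3159 of 6633 CPM and Dcn had 2311. The log2 fold change of Rgs5 was 0.57. Of 20 hepatocyte markers all were tested, 17 below 0 and 3 above, with a median of -1.37 and sums of 4156 to 4881 CPM in LLRCs against 2946 to 9517 CPM in non-LRC cells. Of 10 mesothelial markers 8 were tested, all 8 below 0, with a median of -1.0 and sums of 1330 to 2363 CPM against 1662 to 4008 CPM. Of 16 hematopoietic markers 3 were tested, 2 below 0 and 1 above, with a median of -0.16 and sums of 12.5 to 32.3 CPM in LLRCs against 24.4 to 49.7 CPM in non-LRC cells. Ptprc, which encodes CD45, was at 0 in 3 non-LRC libraries and had 5 to 59 counts in LLRCs. Fcer1g went the other way at -3.89, with 2 to 14 counts in LLRCs and 15 to 112 in non-LRC cells. Of the 16, 10 were at 0 throughout the LLRCs, among them the macrophage markers Adgre1, Clec4f and C1qa, and 2 of these, Cd3e and Cd79a, were at 0 in the non-LRC cells as well. Of 16 pancreatic acinar markers 1 was tested, with a log2 fold change of -1.96, and their sum reached 1541 CPM in the non-LRC library of JV6314. None of these markers passed the adjusted threshold. Their part in the members' levels was not tested either.

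**Figure D2:**
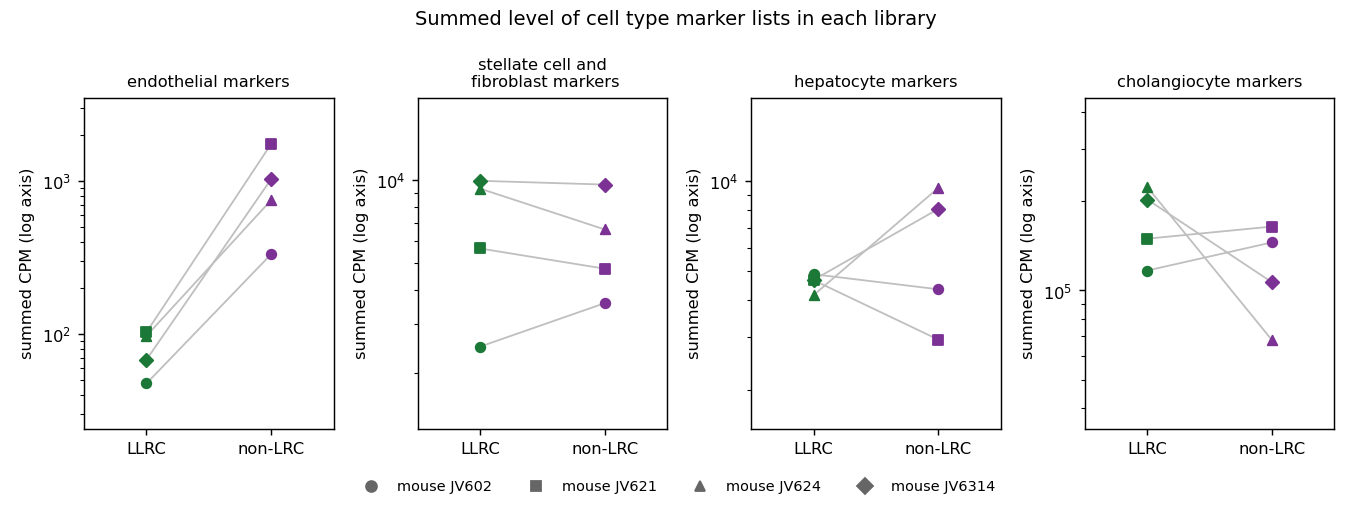
Summed level (CPM, log axis) of 4 lists of cell type markers in each library, with grey lines joining the libraries of a mouse. The endothelial sum is between 47.5 and 102.8 CPM in LLRCs, against 333.1 to 1756 CPM in non-LRC cells. The sums of the other 3 lists overlap between the groups. Rgs5, with a log2 fold change of 0.57, makes up most of the stellate cell and fibroblast sum except in non-LRC JV624. Of the 11 tested genes of that list 9 were below 0.

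The laminin alpha chains gave no common direction. Laminin alpha 5, encoded by Lama5 (ENSMUSG00000015647) on the minus strand of chromosome 2 at 180176373 to 180225859, is the alpha chain of many adult epithelial and vascular basement membranes. Its levels were 24.4, 18.1, 17.1 and 13.3 CPM in LLRCs, by mouse, and 21, 0, 24.2 and 21.7 CPM in non-LRC cells. The non-LRC library of JV621 had a count of 0, which allows up to 0.626 CPM, against 110 to 168 counts in the other non-LRC libraries. Lama5 had a log2 fold change of 0.12 (SE 0.99, 95% interval -2.11 to 2.35, adjusted p = 0.9999 from edgeR), and without that library it was -0.28. The exact permutation test gave p = 0.914. An interval this wide leaves room for a difference of more than 1 on the log2 scale either way.

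Laminin alpha 3, encoded by Lama3 (ENSMUSG00000024421), is the alpha chain of epithelial anchoring laminin. Its counts, by mouse, were 21, 30, 1 and 1 for LLRCs and 20, 0, 3 and 0 for non-LRC cells, which the filter on low counts left out of the test across all genes. With no filter its log2 fold change was 0.94 (SE 1.54, adjusted p = 0.876 from edgeR). The transcript was above the floor of 3 counts in both libraries of JV602 and in the LLRC library of JV621 only. Mean levels were 1.46 ± 1.66 CPM (SD, n = 4) for LLRCs and 0.745 ± 1.19 CPM (SD, n = 4) for non-LRC cells, and the exact permutation test gave p = 0.571. Of its exon bases, 1.83% lie opposite the gene Gm29200, which unstranded counts cannot separate.

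Among the beta chains, Lamb2 was the most abundant per length and Lamb1 and Lamb3 were low and uneven. Laminin beta 2 (Lamb2, ENSMUSG00000052911, chromosome 9 plus strand, 108479736 to 108490530) had 29.4, 23.3, 19.9 and 15.5 CPM in LLRCs, by mouse, and 19.7, 45.3, 25.7 and 15.6 CPM in non-LRC cells. The groups overlapped, with the highest value in the non-LRC library of JV621. Its log2 fold change was -0.27 (SE 0.42, 95% interval -1.21 to 0.67, adjusted p = 0.9999 from edgeR), and it was 0.13 without that library. The exact permutation test gave p = 0.657.

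Laminin beta 1 (Lamb1, ENSMUSG00000002900, chromosome 12 plus strand, 31265234 to 31329644) had 4.94, 2.96, 5.00 and 2.22 CPM in LLRCs, by mouse, and 13.8, 0, 8.84 and 0.592 CPM in non-LRC cells. The non-LRC libraries of JV602 and JV624 were above all LLRC libraries, and those of JV621 and JV6314 were below them, the latter with 3 counts. A log2 fold change of -0.63 (SE 1.18, 95% interval -3.28 to 2.03, adjusted p = 0.9999 from edgeR) was fitted, whereas the difference of mean log2(CPM + 1) was 0.24 with an exact permutation p of 0.83. With the mouse as a block the edgeR estimate was 0.69, so no direction can be given for Lamb1.

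Laminin beta 3 (Lamb3, ENSMUSG00000026639, chromosome 1 plus strand, 193207699 to 193343878) pairs with the alpha 3 chain. It had 11.3, 2.48, 3.09 and 1.44 CPM in LLRCs, by mouse, and 2.50, 0.209, 11.4 and 0.592 CPM in non-LRC cells. In each group 1 library lay far above the others, JV602 in LLRCs with 117 counts and JV624 in non-LRC cells with 72. For Lamb3 the log2 fold change was 0.32 (SE 1.12, 95% interval -2.21 to 2.85, adjusted p = 0.9999 from edgeR), and the exact permutation test gave p = 0.571. Without the LLRC library of JV602 the log2 fold change was -0.65. It became 2.00 when the non-LRC library of JV624 was left out instead.

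The common laminin gamma chain, Lamc1 (ENSMUSG00000026478, chromosome 1 minus strand, 153218922 to 153332786), had 23.2, 19.3, 31.9 and 12.4 CPM in LLRCs, by mouse, and 26.4, 86.2, 28.1 and 9.08 CPM in non-LRC cells. The non-LRC library of JV621, where Lama5 and Lamb1 had 0 counts, had the highest Lamc1 level with 413 counts. Of the other non-LRC values 2 lay within the LLRC range and 1 below it. For Lamc1 the log2 fold change was -0.79 (SE 0.63, 95% interval -2.21 to 0.64, adjusted p = 0.9999 from edgeR), and it was 0.04 without that library. The exact permutation test gave p = 0.571.

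**Figure D3:**
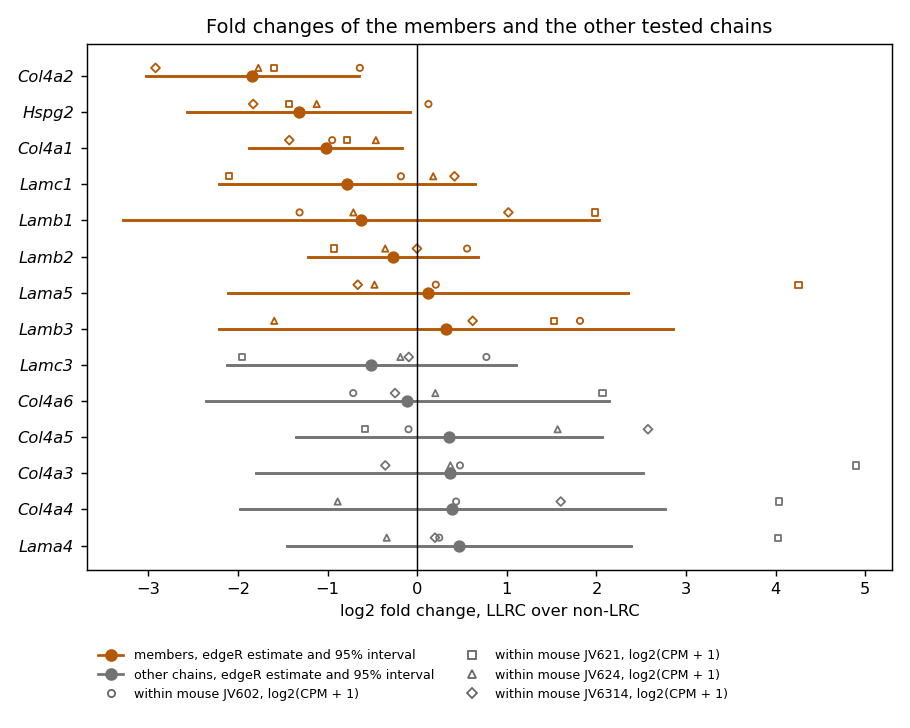
Log2 fold change, LLRC over non-LRC, of the 8 members tested and of 6 other laminin and collagen IV chains tested. Filled points are edgeR estimates, lines their 95% intervals and open symbols the differences within each mouse on the log2(CPM + 1) scale. The intervals of Col4a2, Hspg2 and Col4a1 lie below 0 and all others cross it, and 0 of the 14 genes passed the adjusted threshold.

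Set in order of level per length, as mean CPM per kilobase of merged exons, the members of LLRCs began with Lamb2 at 3.62 ± 0.960, Lamc1 at 2.62 ± 0.983, Lama5 at 1.6 ± 0.405 and Col4a1 at 1.02 ± 0.0958 (SD, n = 4 each). Then came Lamb3 at 0.694 ± 0.689, Col4a2 at 0.624 ± 0.357, Lamb1 at 0.381 ± 0.142, Hspg2 at 0.232 ± 0.0873 and Lama3 at 0.136 ± 0.154. Among neighbours in this order, the ranges of Lama5 and Col4a1 alone did not overlap. Lamb3 was above Col4a2 in 1 LLRC library, that of JV602, without which the Lamb3 mean was 2.34 CPM in place of 4.59. In non-LRC cells the order was Lamc1 at 4.53 ± 4.07, Lamb2 at 4.37 ± 2.17, Col4a2 at 2.25 ± 0.404, Col4a1 at 2.07 ± 0.552 and Lama5 at 1.47 ± 0.986, followed by Lamb1 at 0.585 ± 0.673, Hspg2 at 0.583 ± 0.270, Lamb3 at 0.555 ± 0.791 and Lama3 at 0.0693 ± 0.111. All neighbours overlapped there, and Lamc1 was above Lamb2 in 1 non-LRC library, that of JV621, without which the Lamc1 mean was 21.2 CPM in place of 37.5. Without JV602 the non-LRC mean of Lamb1 was 3.14 CPM in place of 5.80, and that of Lama3 was 0.158 in place of 0.745. Without JV624 the non-LRC mean of Lamb3 was 1.10 CPM in place of 3.67. Both collagen IV members ranked above Lama5 in non-LRC cells, where the Lama5 mean includes the library with 0 counts, and below it in LLRCs. Merged exons can be longer than any single transcript, among the members most of all for Lamb1 (9917 against 5784 bases), so its level per length depends on the length used. Among the other chains this also held for Lama4 (12068 against 6046 bases).

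**Figure D4:**
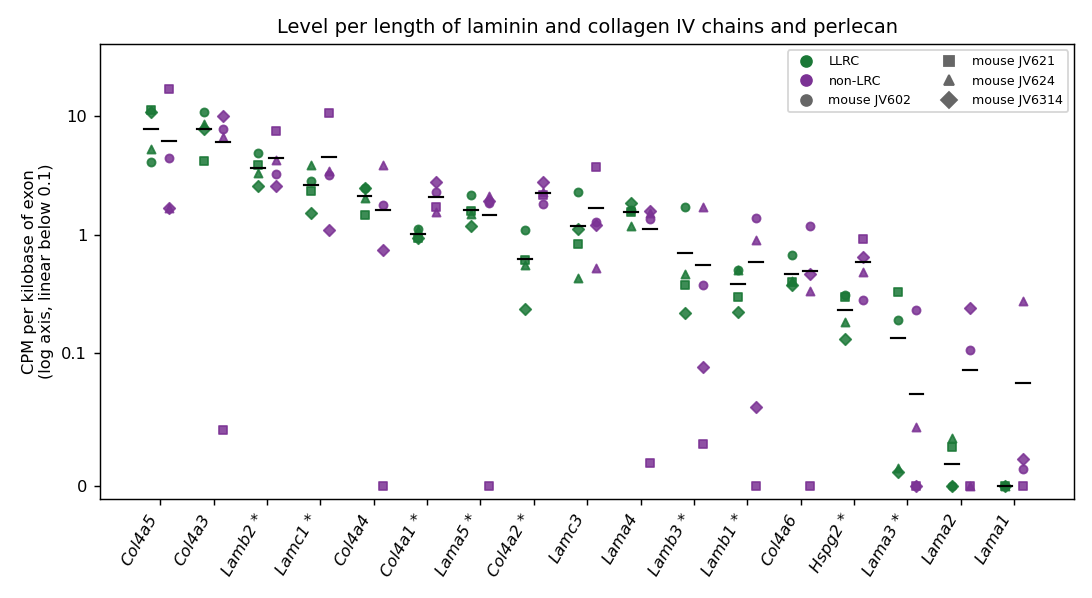
Level of the members (marked with a star) and of 8 other laminin and collagen IV chains in each library, as CPM per kilobase of merged exons on a log axis that is linear below 0.1, ordered by the mean of the group means. Black lines are group means. Col4a5 and Col4a3 have a higher mean than every member, and the non-LRC library of JV621 holds the lowest value of Col4a3, Col4a4, Lama5, Lama4, Lamb3, Lamb1 and Col4a6, at or near 0. Lamb1 and Lamb3 are also low in the non-LRC library of JV6314, and Lama3 is at 0 in both.

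Of 8 other laminin and collagen IV chains 6 were tested, and their log2 fold changes lay on both sides of 0. Among these 6, 4 were above 0 and 2 below, with a median log2 fold change of 0.36, and 0 passed the threshold. Without the non-LRC library of JV621 these 6 were 3 above 0 and 3 below, with a median of 0.03. For none of them were all LLRC libraries on one side of all non-LRC libraries, and their difference from Col4a1 and Col4a2 was not tested. Lamc3 was at -0.51, and at 0.24 without the non-LRC library of JV621. Lama4, the alpha chain typical of vessels, was at 0.47, and at 0.07 without that library. Lama1 and Lama2, the alpha chains best known from embryonic tissue and muscle, had too few counts to be tested. Lama1 had 0 counts throughout the LLRCs and, by mouse, 1, 0, 17 and 1 among non-LRC cells. Lama2 had between 0 and 20 counts.

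In LLRCs the alpha 3, alpha 4 and alpha 5 chains of collagen IV had higher levels per length than alpha 1. Col4a3 stood at 7.78 ± 2.78, Col4a5 at 7.77 ± 3.63 and Col4a4 at 2.09 ± 0.470 CPM per kilobase (SD, n = 4 each), beside 1.02 ± 0.0958 for Col4a1. In non-LRC cells they stood at 6.05 ± 4.23, 6.08 ± 7.13 and 1.59 ± 1.67, and overlapped with Col4a1 at 2.07 ± 0.552. Col4a3 overlapped through JV621 alone, at 0.0419, beside 7.75, 6.56 and 9.86 in JV602, JV624 and JV6314. The non-LRC mean of Col4a5 was 17.3 CPM without JV621 in place of 40.8, and that of Col4a4 was 8.93 CPM without JV624 in place of 16.9. The log2 fold changes were 0.36 for Col4a3, 0.39 for Col4a4, 0.36 for Col4a5 and -0.11 for Col4a6, with standard errors from 0.76 to 1.05. Col4a3 had 348 to 1113 counts in the LLRC libraries and 414 to 617 in 3 non-LRC libraries, but 2 in the non-LRC library of JV621. Without that library its log2 fold change was -0.04, and that of Col4a4 was -0.01. Col4a6 was at 0.77 without the non-LRC library of JV602 and at 0.81 with limma voom on all libraries. Col4a5 was below 0, at -0.15, only with both libraries of JV6314 left out. The ratio of Col4a3 to Col4a1 per length was 9.69, 4.42, 7.84 and 8.19 in LLRCs, by mouse, and 3.40, 0.0246, 4.25 and 3.59 in non-LRC cells. Each LLRC value was above all non-LRC values, by a small margin at the nearest pair. The exact permutation test of the log2 ratio gave p = 0.029, unadjusted, the smallest that 4 against 4 allows. This ratio, too, was chosen after the values had been seen, so the same holds for its p.

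The remaining basement membrane components, 20 genes, gave 14 tested, 9 below 0 and 5 above, with a median of -0.42 and 0 past the threshold. The lowest were Hmcn1, which encodes hemicentin 1, at -5.53, and Nid1, which encodes nidogen 1, the link between laminin and collagen IV, at -4.26 (SE 1.32, adjusted p = 0.567 from edgeR). The size of both rested on the non-LRC library of JV621. Without it the non-LRC mean of Hmcn1 was 4.68 CPM in place of 43.8, and its log2 fold change was -2.29. Nid1 had 0, 8.99, 5.74 and 3.33 CPM in LLRCs, by mouse, and 24.9, 262.9, 22.9 and 33.9 CPM in non-LRC cells. The groups did not overlap, and the exact permutation test gave p = 0.029. Without the non-LRC library of JV621 the non-LRC mean of Nid1 was 27.2 CPM in place of 86.2, and its log2 fold change was -2.59. DESeq2 with the mouse as a block called both, with an adjusted p of 0.000198 for Nid1 and 0.00557 for Hmcn1. Over the alternatives the adjusted p reached 0.99996 for Nid1 and 1 for Hmcn1. Nid2 had between 0 and 53 counts and was not tested. The highest were Frem2, of the Fraser complex, at 1.29 and Npnt, which encodes nephronectin, at 1.11. Npnt was at 5.20 without the non-LRC library of JV624 and at -0.06 without both libraries of JV621. Sparc, a collagen-binding matricellular protein named here after its values were seen, was the third of this list with groups that did not overlap, at 169 ± 26.1 CPM in LLRCs against 259 ± 49.6 CPM in non-LRC cells (SD, n = 4 each).

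Receptors for basement membranes were even in direction. Of 14 genes 12 were tested, 6 below 0 and 6 above, with a median of 0.03. Itga1, the alpha subunit of a collagen-binding integrin, was lowest at -2.84 (SE 0.74, adjusted p = 0.369 from edgeR) with 10.1, 6.74, 5.88 and 4.22 CPM in LLRCs, by mouse, and 14.0, 130.3, 22.6 and 26.8 CPM in non-LRC cells. Its groups did not overlap, and the exact permutation test gave p = 0.029. Itga1 is named because its fold change was the lowest of its list, so this p is not independent evidence. Without the non-LRC library of JV621 the non-LRC mean was 21.1 CPM in place of 48.4, and the log2 fold change was -1.63. DESeq2 with the mouse as a block called Itga1 (adjusted p = 0.0289), as did 3 other alternatives, and over all 26 its adjusted p ran from 0.00844 to 0.999882. The laminin receptor Bcam followed at -0.78, and the highest were Ddr1, a collagen receptor kinase, at 0.57 and Itga3, a laminin-binding integrin subunit, at 0.29. None of the 12 passed the threshold.

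For collagen assembly and modification, 13 of 14 genes were tested, 9 below 0 and 4 above, with a median of -0.21 and 0 past the threshold. The lowest were Pxdn, the peroxidase that forms collagen IV crosslinks, at -1.43 and P4ha1, a prolyl hydroxylase subunit, at -0.76. The highest were Mia3, which helps to load collagens for secretion, at 0.53 and Colgalt1, a collagen galactosyltransferase, at 0.48. For proteases and inhibitors, 9 of 12 genes were tested, 6 below 0 and 3 above, with a median of -0.59 and 0 past the threshold. Hpse, which encodes heparanase, stood at -4.02 and Timp3, a matrix-bound inhibitor of metalloproteinases, at -1.90 (SE 0.48, adjusted p = 0.358 from edgeR). Timp3 had 56.8 ± 13.3 CPM in LLRCs against 211.7 ± 160 CPM in non-LRC cells (SD, n = 4 each), without overlap, and the exact permutation test gave p = 0.029. Timp3 is named because its fold change was among the lowest of its list, so this p is not independent evidence. Without the non-LRC library of JV621 the non-LRC mean was 132.6 CPM for Timp3, with a log2 fold change of -1.21, and 8.17 CPM in place of 15.0 for Pxdn, with one of -0.55. DESeq2 with the mouse as a block called Timp3 (adjusted p = 0.0242), as did 3 other alternatives, and over all 26 its adjusted p ran from 0.0204 to 0.999882. Bmp1 was at 0.47 and Mmp15 at 0.10.

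Across the 8 libraries pairs of members varied together, described here by Pearson's r of log2(CPM + 1) without a test, since the libraries share mice, depth and the group difference. Col4a2 varied with Hspg2 (r = 0.86) and with Col4a1 (r = 0.86), Col4a1 with Hspg2 (r = 0.63), and Lamb2 varied with Lamc1 (r = 0.87). Lamb1 varied with Lamb3 (r = 0.74) and with Lama5 (r = 0.68), and Lama5 with Lamb3 (r = 0.61). The non-LRC library of JV621 was the lowest of the 8 for Lama5, Lamb1 and Lamb3 and the highest for Lamb2 and Lamc1. The r without it was not computed. Lama5 ran opposite to Lamc1 (r = -0.74) and to Lamb2 (r = -0.70), with the non-LRC library of JV621 at the end of each scale. The tested genes most like Col4a1 were Ramp3 (r = 0.97), Rpap3 (r = 0.97) and Crlf3 (r = 0.95). Those most like Col4a2 were Tns2 (r = 0.98), Bgn (r = 0.94) and Ptgs1 (r = 0.93). Those most like Lamb2 were Cpt1c (r = 0.99), Scarb1 (r = 0.97) and Flywch1 (r = 0.97).

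The windows before the RefSeq transcription starts were searched for short motifs to describe what the members share in sequence. RefSeq promoters were at hand for 7 of the 9 members. The windows before Col4a1 and Col4a2 lie within the annotated span of the other gene of the pair. RefSeq and GENCODE starts differ for some members, so the windows of Lamb1, Lamb2 and Hspg2 run past the GENCODE gene start, and both windows of Lamb3 lie inside the GENCODE gene. Among 250-base windows, counting both strands, the GC box GGGCGG was found before Col4a2, Lama5, Lamb1 and Hspg2, beside 32.7% of 32851 promoters of that length. The letters CCAAT were found before Col4a1, Col4a2 and Lamb1, beside 33.8% of promoters, and TATAAA before none of the 7, beside 12.4%. The windows of Hspg2, without its last bases, which lie past the gene start in GENCODE, and of Lama5 are printed because these genes held the most GC boxes, 5 and 4, while their levels differed in pattern, Hspg2 being lower in LLRCs in 3 mice and Lama5 in 2. Capitals mark GC boxes, which read CCGCCC where they lie on the opposite strand, and both are written 5′ to 3′ along the gene's own strand (GRCm38.p6), Hspg2 at chr4:137468553-137468768 on the plus strand and Lama5 at chr2:180225860-180226109 on the minus strand.
Hspg2, upstream: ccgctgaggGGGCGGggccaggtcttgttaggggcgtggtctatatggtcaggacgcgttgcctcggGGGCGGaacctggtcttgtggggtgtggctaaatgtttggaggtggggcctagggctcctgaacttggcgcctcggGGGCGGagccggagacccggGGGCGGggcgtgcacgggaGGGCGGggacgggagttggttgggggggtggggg
Lama5, upstream: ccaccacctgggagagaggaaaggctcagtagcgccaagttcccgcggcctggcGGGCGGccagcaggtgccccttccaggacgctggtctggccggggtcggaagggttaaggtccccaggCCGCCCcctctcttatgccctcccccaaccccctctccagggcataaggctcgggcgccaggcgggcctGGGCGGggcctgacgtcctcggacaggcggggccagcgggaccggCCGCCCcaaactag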

How the data were processed

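RNA-seq was analysed for 8 libraries from 4 mice, each with an EGFP-positive (LLRC) and an EGFP-negative (non-LRC) library. The authors extracted RNA with a kit for small samples, had the reads aligned at a service facility (the aligner is not given in the sources used here), and deposited raw counts per gene, made with HTSeq on exons of Ensembl genes of GRCm38.p4 in union mode without strand. The authors' table of their own edgeR 3.2.4 comparison, with fold changes and p-values, was not used. Labels name the mouse of each library. P-values measure the spread between these libraries.

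The members and gene lists were chosen with earlier results of these data known. Symbols and coordinates came from GENCODE M21 for 46091 of 46603 identifiers, promoters from RefSeq. Genes were filtered with filterByExpr (13605 kept), scaled by TMM and tested across all genes by the quasi-likelihood test of edgeR 4.0.16 (glmQLFit at its defaults, R 4.3.3). The design held the group alone, p-values were adjusted after Benjamini and Hochberg, and 0.05 was the threshold. Single genes were also tested by an exact two-sided permutation test of mean log2(CPM + 1) over 70 splits, for 9 members and the genes named, with no adjustment. DESeq2 1.42.0 and limma 3.58.1 served as alternatives, besides other scalings and filters, the mouse as a block and libraries left out, and the steps were tested on simulated data. Levels per length are CPM per kilobase of merged exons. Named besides the members were 8 other laminin and collagen IV chains, Nid1, Nid2, the 2 highest and 2 lowest fold changes of each further basement membrane list, and the 3 genes most correlated with Col4a1, Col4a2 and Lamb2. A gene that this rule also names is not reported here.

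The libraries of a mouse come from the same animal, so they pair. Their deviations from the group means correlated at 0.09, 0.10, 0.004 and 0.19 in JV602, JV621, JV624 and JV6314. No 2 libraries of the same group agreed within sampling noise.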

Additional observations from a re-analysis of the deposited data

Results flagged for a closer look

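In 12 of 69 groups of 4 values looked at, over the members and the other named genes, the highest or lowest library lay farther from the other three than Dixon's 95% limit allows. Chance gives about 1 in 20 groups. Among the members these were the Lama5 level of 0 CPM in the non-LRC library of JV621 and the Lamb3 level of 11.3 CPM in the LLRC library of JV602. In the non-LRC library of JV621, Lama4 was also low, at 0.209 CPM, while Nid1 at 262.9 CPM, Hmcn1 at 161.2 CPM, Itga1 at 130.3 CPM, Pxdn at 35.5 CPM and Timp3 at 449.0 CPM were high. In the non-LRC library of JV624, Lama1 at 2.68 CPM, Nid2 at 8.37 CPM and Npnt at 4.42 CPM were high. Col4a6 was high in the LLRC library of JV602, at 5.33 CPM. Col4a1, Col4a2 and Hspg2 had no such library in either group.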

How the results depend on the processing

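The members called numbered 0 in all fits but DESeq2's Wald test, which called 1, Col4a2, a call that ended with the mouse as a replicate block in DESeq2 (adjusted p = 0.0781). The block changed no member's call in edgeR or limma voom. Over all genes, 11 were called with no filter on low counts, 221 by DESeq2's Wald test, 171 by the likelihood ratio test, 159 by the exact test, 73 by the quasi-likelihood test with legacy = FALSE, 312 by DESeq2 with the mouse as a replicate block, and between 0 and 6 when libraries or mice were left out, the 6 without the non-LRC library of JV602. With both doubted non-LRC libraries (JV621 and JV6314) left out, a choice made after seeing the data, 1 gene was called and no member. With the mouse as a block, edgeR's quasi-likelihood test called 0 genes. The median log2 fold change of the members, -0.71, became -0.30 with limma voom, -0.29 with the replicate block in edgeR and -0.33 with it in DESeq2. Leaving out libraries or mice gave -0.90 to -0.28 over the members then tested, the last over 9 with Lama3 added, and -0.92 to -0.51 over the same 8 members. Col4a1, Col4a2 and Hspg2 stayed below 0 in all 26 alternatives, Col4a1 between -1.17 and -0.82, Col4a2 between -2.37 and -1.45 and Hspg2 between -1.75 and -0.70. The others changed sign in some, and the cause was not tested. Lama5 was -0.026 with library size only. Lamb1 was 0.73 with limma voom, 0.69 with the block in edgeR and 0.79 with it in DESeq2. Col4a6 was 0.81, 0.55 and 0.58 in these fits and 0.026 with the block in limma voom, and Mmp15 was -0.019, -0.019 and -0.055. With both doubted libraries left out, Lama5 was -0.30, Lamb3 -0.57, Lamc3 0.39, Col4a4 -0.41, Itga3 -0.22 and Mmp15 -0.14. Leaving out libraries or mice gave ranges of -0.28 to 0.40 for Lama5, -1.03 to 0.24 for Lamb1, -0.58 to 0.13 for Lamb2, -0.83 to 2.16 for Lamb3, -1.15 to 0.089 for Lamc1, -1.19 to 0.37 for Lamc3, -0.039 to 0.71 for Col4a3, -0.013 to 1.32 for Col4a4, -0.15 to 1.6 for Col4a5, -0.51 to 0.77 for Col4a6, -0.085 to 0.86 for Itga3, -0.24 to 0.43 for Mmp15 and -0.060 to 5.59 for Npnt. With the longest transcript in place of merged exons, Col4a1 in LLRCs was at 1.15 and Lamb1 at 0.654 CPM per kilobase. On that length Lamb1 ranked above Col4a2 in LLRCs, the reverse of their order by merged exons. Lama3 was tested in 10 alternatives, at -0.023 with both doubted libraries left out and between 0.51 and 1.29 in the other 9.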
